A study of Mus musculus with 6 samples.

Results

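Heat shock proteins, chaperonins and co-chaperones were examined in mouse embryonic stem cells sorted by a reporter of the two-cell-like state. The members were the genes of the authors' deposited table whose names carry the Hspa, Hspb, Hspd, Hspe, Hsph, Hsp90, Dnaja, Dnajb, Dnajc, Cct, Tcp1, Pfdn or Bag stem followed by a number, with pseudogene names (-ps) left out. Of 17110 genes in the authors' deposited table, 88 matched the name pattern and 3 pseudogene names were removed, which left 85 members in 11 families. GENCODE release 21 for mouse lists 92 protein-coding genes under the same rule. Of these, 84 had a row by Ensembl identifier, 1 of them (Hspb11) under the name Ift25 and so outside the rule, and the other 8 (Cct8l1, Dnajb7, Dnajb8, Dnajc5b, Dnajc5g, Hspb3, Hspb7 and Hspb9) were not analysed here.

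The cells were of the line named TG2A and grew in serum with leukemia inhibitory factor. All of them carried a fluorescent protein under MERVL, an endogenous retrovirus that mouse embryos transcribe around the two-cell stage. Fluorescence-activated cell sorting gave 3 DsRed2-positive and 3 DsRed2-negative samples, collected on different dates, and both groups share the line, the transgene and the medium. The authors' deposited table names neither the groups compared nor the numerator, so every sign below is the deposited one and which sorted group it favours is not known. It holds 1 fold change per gene with its standard error and no value per sample, so spread is given here as that standard error, written after ±. In such bulk libraries, fewer cells of a type and less RNA per cell cannot be told apart.

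Chaperones bind unfolded or aggregation-prone proteins and help them fold, assemble or reach degradation. Hsp70 proteins work in an ATP-driven cycle: J-domain proteins (the Dnaj families) bring substrates and stimulate hydrolysis, and Hsp110 and Bag proteins act as nucleotide exchange factors. Hsp90 finishes the folding of kinases and receptors, prefoldin hands nascent actin and tubulin to the ring-shaped chaperonin TRiC, and Hsp60 with Hsp10 forms the mitochondrial chaperonin. Heat shock factor 1 induces many of these genes through heat shock elements, which are inverted repeats of the pentamer nGAAn. The unfolded protein response of the endoplasmic reticulum (ER) acts through another promoter element.

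Promoter stretches with these elements are shown first because members that carry the same element are compared below. They come from RefSeq (GRCm38.p6), which is not the GRCm39 build of the submitters' processing notes. Capitals mark the element. The first set holds the heat shock element with 3 units, searched on both strands as GAA, TTC and GAA in this order with NN between them. It contains the 2-unit element, GAANNTTC.
Hspd1 (chr1:55088053-55088082, minus strand): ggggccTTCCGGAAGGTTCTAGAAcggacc
Hspe1 (chr1:55088053-55088082, plus strand): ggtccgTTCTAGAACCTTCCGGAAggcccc
Dnajb6 (chr5:29735844-29735873, plus strand): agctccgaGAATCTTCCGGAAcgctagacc
Hsph1 (chr5:149636279-149636308, minus strand): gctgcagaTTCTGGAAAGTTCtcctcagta
Hspd1 and Hspe1 lie next to each other on chromosome 1 and read away from one shared stretch, whose 2 overlapping 3-unit matches start 144 bases before the Hspd1 start and 89 bases before the Hspe1 start.

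The second set holds the 2-unit form, GAANNTTC, which is its own reverse complement, without a 3-unit match in the bases searched. The Bag3 element ends at the last base searched, so further units beyond it could not be seen. The elements of Bag3 and Hsph1 lie after the start of the gene.
Hspb1 (chr5:135887801-135887830, plus strand): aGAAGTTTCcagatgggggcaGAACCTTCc
Hspa1a (chr17:34972242-34972271, minus strand): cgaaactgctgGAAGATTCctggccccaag
Hspa1b (chr17:34959324-34959353, minus strand): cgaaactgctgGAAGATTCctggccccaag
Dnaja1 (chr4:40722333-40722362, plus strand): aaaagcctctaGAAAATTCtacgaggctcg
Dnaja4 (chr9:54699496-54699525, plus strand): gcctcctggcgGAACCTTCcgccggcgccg
Bag3 (chr7:128523603-128523632, plus strand): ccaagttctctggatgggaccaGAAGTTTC
The third set holds the ER stress response element, searched on both strands as CCAAT followed by any 9 bases and CCACG, which contains a CCAAT box.
Hspa5 (chr2:34772020-34772049, plus strand): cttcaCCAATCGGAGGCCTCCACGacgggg
Hsp90b1 (chr10:86705632-86705661, minus strand): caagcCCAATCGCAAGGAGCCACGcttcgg
Dnajc3 (chr14:118937822-118937851, plus strand): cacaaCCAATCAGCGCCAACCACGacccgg

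Across the 85 members, few genes passed the threshold and those that did came from 7 of the 11 families. In the authors' deposited table, 18 members (21.2%) had an adjusted p-value under 0.05, beside 30.5% of all genes. Of these members of the authors' deposited table, 11 were positive and 7 were negative, or 12.9% and 8.24% of members beside 14.6% and 15.9% of all genes. The authors' own call, which also asks for an absolute log2 fold change over 0.5, named 4 members up (4.71%, beside 9.4% of all genes in the authors' deposited table) and 5 down (5.88%, beside 12.1%). The median log2 fold change in the authors' deposited table was 0.0033 over the members and 0.0097 over all genes. This split depends on scaling: centred on the 79 ribosomal protein genes, which stood at a median of 0.093 themselves, the authors' deposited table gave 6 positive and 18 negative members, and the positive share went from 61.1% to 25.0%. For all genes of the authors' deposited table that share went from 47.8% to 34.7%, and the members' median turned to -0.090.

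The members took 3.62% of the summed mean normalized counts in the authors' deposited table, and 45 of them had a mean count of at least 1000. Among these 45 in the authors' deposited table, 9 passed the threshold, beside 31.0% of all genes with such counts. For 50 of the 85 members in the authors' deposited table, the 95% interval (normal, from the deposited standard error) lay between -0.5 and 0.5. The same held for 5653 of all 17110 genes and for all 79 ribosomal protein genes. At mean counts from 1000 up, it held for 36 of 45 members, beside 3942 of 5780 genes. Below 1000 it held for 14 of 40 members, beside 1711 of 11330 genes. Such narrow intervals thus go with high counts in members and in all genes, and the difference between members and all genes was not tested.

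**Figure D1:**
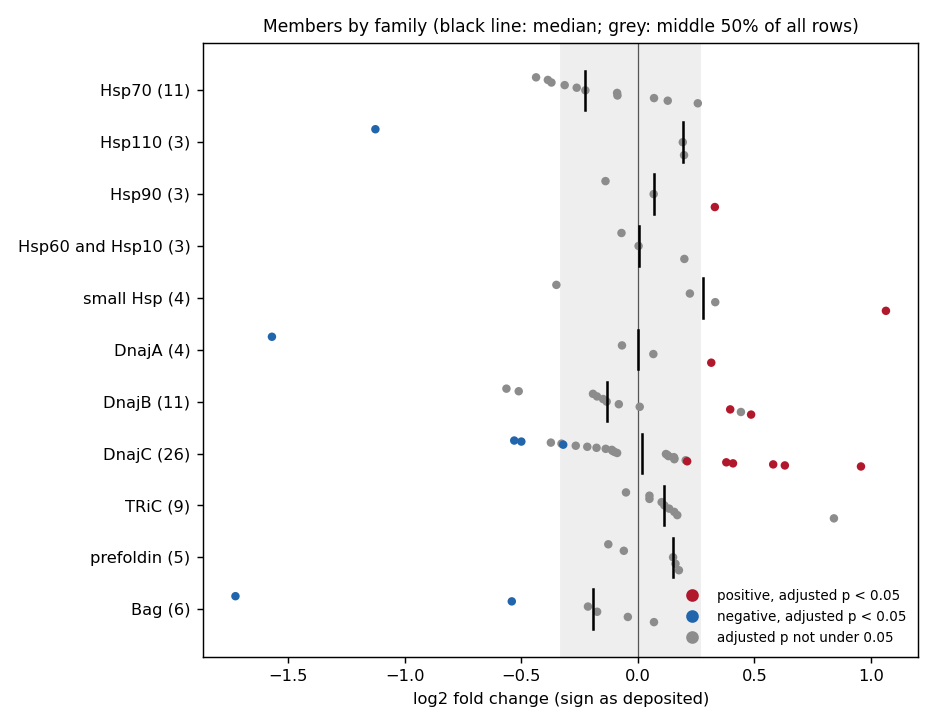
Log2 fold change (x axis, sign as deposited) of each of the 85 members by family (y axis, number of members in brackets); black lines are family medians and the grey band is the interquartile range of all 17110 genes. Most members lie within the band, TRiC (apart from Cct6b at 0.84) and prefoldin subunits lie close together, and the coloured points past the threshold are spread over 7 families.

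**Figure D2:**
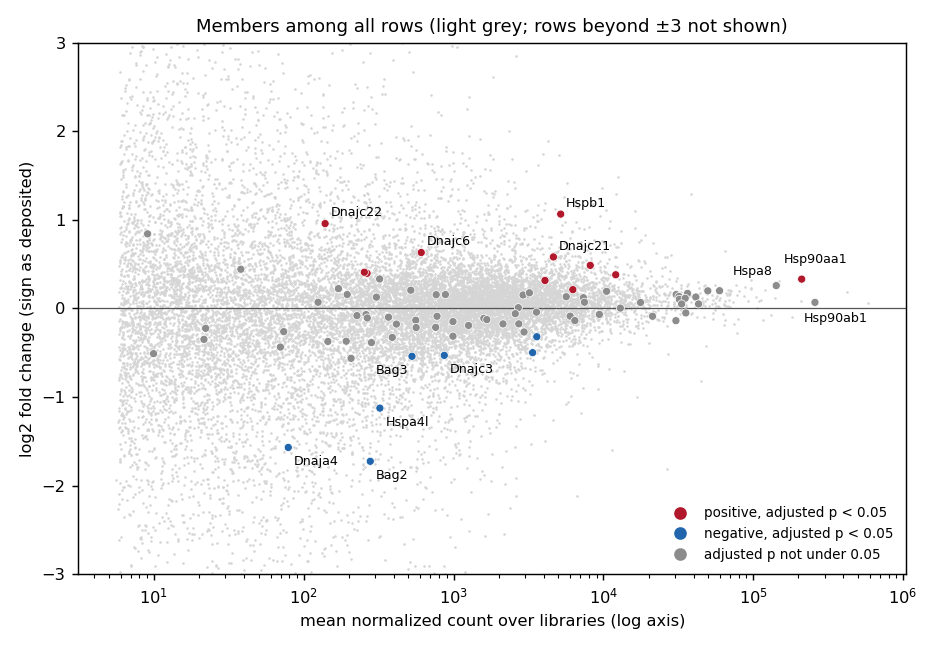
Mean normalized count over libraries (x axis, log scale) against log2 fold change (y axis, sign as deposited) for the 85 members over all other genes in light grey (those beyond 3 in either direction not shown). Hsp90ab1, Hsp90aa1 and Hspa8, the members with the highest counts, lie at 0.068, 0.33 and 0.26. Bag2, Dnaja4 and Hspa4l, at mean counts between 78.8 and 322.1, lie lowest.

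The Hsp70 family had 0 of 11 members past the threshold by the authors' deposited table, beside 30.5% of all genes. At an unadjusted p-value under 0.05 it had 2, beside 6567 of all 17110 genes. Hspa8, the constitutive cytosolic Hsp70, had a log2 change of 0.26 ± 0.12 in the authors' deposited table (DESeq2 adjusted p = 0.0803, mean count 142350). On the opposite strand, Gm26825 covers 58.5% of its windows. The heat-inducible pair Hspa1a and Hspa1b, which lie next to each other on chromosome 17, stood at -0.44 ± 0.29 and -0.39 ± 0.22 in the authors' deposited table, and neither passed (adjusted p = 0.265 and 0.192). Both values of the pair are on the negative side of 0 with intervals that include it. Their reads are hard to separate: 47.1% of the 100-base windows of the Hspa1a transcript also occur in Hspa1b.

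Hspa5, the ER Hsp70 known as BiP, had -0.089 ± 0.12, and Hspa9, the mitochondrial Hsp70, had 0.13 ± 0.075 in the authors' deposited table (adjusted p = 0.627 and 0.198). Hspa2 and Hspa1l, Hsp70 genes known from testis, stood at -0.37 and -0.26 in the authors' deposited table (adjusted p = 0.101 and 0.586). The antisense-side gene Gm10501 overlaps 70.8% of the windows of Hspa1l. The other Hsp70 members (Hspa12a, Hspa12b, Hspa13 and Hspa14) ran from -0.31 to 0.070 in the authors' deposited table. Thus 8 of 11 family members were negative, with a median of -0.22, and in the authors' deposited table the median was 0.021 over the 4 with a mean count of at least 1000. After ribosomal centring, 2 Hsp70 members of the authors' deposited table passed on the negative side, Hspa2 and Hspa13.

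The 3 Hsp110 members, large relatives of Hsp70 that act as exchange factors, split, and 1 of them passed (33.3%, beside 30.5% of all genes). Hspa4l, an Hsp110 gene known from testis, was lower by deposited sign at -1.13 ± 0.15 in the authors' deposited table (DESeq2 adjusted p = 4.96e-13), a 2.18-fold difference. Its paralogs Hspa4 and Hsph1 had 0.20 ± 0.13 and 0.19 ± 0.22 in the authors' deposited table, without a call (adjusted p = 0.268 and 0.561). Hspa4l had a mean count of 322.1 in the authors' deposited table, beside 49729 for Hspa4 and 10495 for Hsph1. Per kb of transcript, the level of Hspa4l was 34.0 normalized counts and that of Hspa4 was 10769, so the member that moved is the one with the least RNA per length in its family. No 100-base window of the Hspa4l transcript occurs in another gene.

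Of the 3 Hsp90 genes, Hsp90aa1 alone passed (33.3%, beside 30.5% of all genes). Hsp90aa1, the stress-inducible cytosolic form, had a log2 change of 0.33 ± 0.098 in the authors' deposited table (DESeq2 adjusted p = 0.0036), a 1.26-fold difference that is below the authors' limit. Hsp90ab1, the constitutive form, stood at 0.068 with an interval from -0.063 to 0.20 in the authors' deposited table, and turned to -0.025 after ribosomal centring, without a call on either scale. Hsp90b1, the ER form known as Grp94, had -0.14 ± 0.081 in the authors' deposited table (adjusted p = 0.199). On ribosomal centring the authors' deposited table gave -0.23 for Hsp90b1 with an adjusted p-value of 0.0167. In Hsp90aa1, 47.5% of windows occur in other genes, most of them in the pseudogene Gm12346, which itself had 0.48 ± 0.12 in the authors' deposited table. Reads of these could have been divided between them, and the part of this in the value of Hsp90aa1 was not tested.

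Neither gene of the mitochondrial chaperonin had a call, where 30.5% of all genes were past the threshold. Hspd1 (Hsp60) had 0.20 ± 0.17, and Hspe1 (Hsp10), on the other side of the shared promoter, had 0.0033 ± 0.12 in the authors' deposited table (adjusted p = 0.410 and 0.988). The pseudogene Hspd1-ps3, left out by the rule, stood at 0.32 ± 0.22 in the authors' deposited table. The values of Hspe1 and of the family median, 0.0033, turned negative under both centrings, to -0.0064 and -0.090, without a call.

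Among the 4 small heat shock proteins, which hold unfolding proteins in soluble complexes, Hspb1 had the smallest p-value of all 85 members. It alone of the 4 passed the threshold (25.0%, beside 30.5% of all genes). Hspb1 (Hsp25 in mouse) had a log2 change of 1.06 ± 0.098 in the authors' deposited table (DESeq2 adjusted p = 1.15e-25), a 2.09-fold difference. It ranked 190 of 17110 genes by p-value, the best rank of any member in the authors' deposited table. Hspb8, the partner of Bag3 in selective autophagy, had 0.33 ± 0.35 in the authors' deposited table (adjusted p = 0.523). In the authors' deposited table, Hspb2 and Hspb6 stood at -0.35 ± 0.49 and 0.22 ± 0.30, at mean counts of 21.6 and 170.5. At these standard errors, differences of the size seen were not detectable for these 3 members. In Hspb1, 56.3% of windows also occur in the pseudogene Hsp25-ps1, which had 1.41 ± 0.15 at a mean count of 352.0 in the authors' deposited table, beside 5186 for Hspb1. Both names moved in the same direction, and how the reads were divided was not tested.

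Subunits of TRiC and prefoldin lay close to 0 and to each other. TRiC has 8 different subunits per ring. Of the 8 ubiquitous genes (Tcp1, Cct2, Cct3, Cct4, Cct5, Cct6a, Cct7 and Cct8), 0 passed the threshold in the authors' deposited table, beside 30.5% of all genes. Beside 6567 of all 17110 genes, 0 of these 8 had an unadjusted p-value under 0.05. Their fold changes ran from -0.051 for Cct2 to 0.17 for Cct6a, and all 8 intervals lay between -0.19 and 0.42 in the authors' deposited table. Of the 8, 7 were positive as deposited and 5 after ribosomal centring, which moved their median from 0.11 to 0.015 and turned Tcp1 from 0.050 to -0.043. Cct5 and Cct6a, the subunits with the smallest p-values, had 0.13 ± 0.091 and 0.17 ± 0.11 in the authors' deposited table (adjusted p = 0.285 and 0.252). Their levels also lay close together. Per kb of transcript, the 7 of these genes with a protein-coding transcript in GENCODE release 21 lay between 13158 and 18103 normalized counts, a 1.38-fold range. Cct6a was left out because the release lists its identifier as a processed transcript. Cct6b, the form known from testis, had a mean count of 9.07 and a log2 change of 0.84 ± 0.77 in the authors' deposited table, which is not distinguishable from 0.

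Of the 5 prefoldin genes under the name rule, 0 passed the threshold in the authors' deposited table, also at an unadjusted p-value under 0.05. Among all 17110 genes, 30.5% passed the threshold and 6567 had an unadjusted p-value under 0.05. Vbp1, a prefoldin subunit without that name, is counted below among chaperonin helpers. It stood at -0.11 ± 0.12 in the authors' deposited table (DESeq2 adjusted p = 0.526). Pfdn6, Pfdn1 and Pfdn2 had 0.18, 0.16 and 0.15, and Pfdn5 and Pfdn4 had -0.060 and -0.13, by the authors' deposited table, whose errors for them ran from 0.080 to 0.11. All 5 intervals lay between -0.28 and 0.37. After ribosomal centring Pfdn4 passed on the negative side and the median of the family fell from 0.15 to 0.058. Per kb, prefoldin genes ranged 2.37-fold, from 1676 to 3973 normalized counts.

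**Figure D3:**
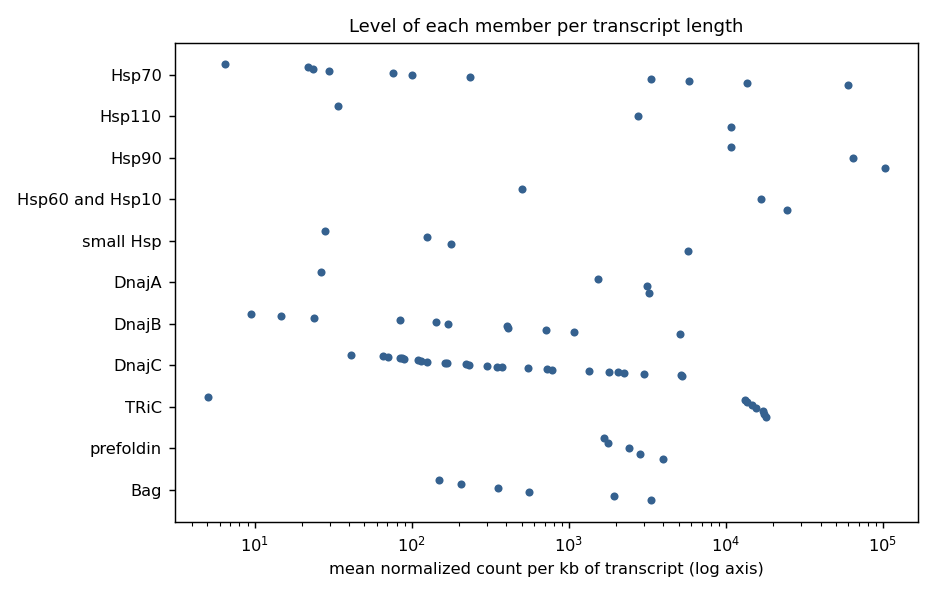
Mean normalized count per kb of the principal transcript (x axis, log scale) for each member with a protein-coding transcript in GENCODE release 21, by family (y axis); each point is 1 gene. Apart from Cct6b at 5.08, TRiC genes fall within a 1.38-fold range, whereas the Hsp70 genes span from 6.49 to 59461.

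The 41 J-domain proteins held most of the members that passed, 13 (31.7%), against 5 (11.4%) of the other 44 members, beside 30.5% of all genes in the authors' deposited table. That difference between families was not tested, since genes are not replicates.

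In the DnajA family, which has the full domain set of bacterial DnaJ, Dnaja4 and Dnaja3 passed in opposite directions. Dnaja4 was at -1.57 ± 0.27 in the authors' deposited table (DESeq2 adjusted p = 7.92e-08), a 2.97-fold difference at a mean count of 78.8. On the opposite strand Skic8 (Wdr61) covers 51.0% of its windows, with 0.055 and a mean count of 3015 in the authors' deposited table, and whether the counting used strand is not given in the sources used here. Dnaja3, the mitochondrial Tid1 protein, was at 0.32 ± 0.083 in the authors' deposited table (adjusted p = 0.00096). The cytosolic partners of Hspa8, Dnaja1 and Dnaja2, stood at 0.067 and -0.068 in the authors' deposited table (adjusted p = 0.830 and 0.744), and Dnaja1 turned to -0.026 after ribosomal centring.

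In the DnajB family 2 of 11 passed (18.2%, beside 30.5% of all genes), both positive. Dnajb6, known to suppress aggregation of polyglutamine proteins, had 0.49 ± 0.10 in the authors' deposited table (DESeq2 adjusted p = 2.35e-05). Dnajb2, a J protein that also binds ubiquitin, had 0.40 ± 0.16 in the authors' deposited table (adjusted p = 0.0387). Its call was lost after ribosomal centring, at 0.30 and an adjusted p-value of 0.132. Dnajb6 shares 34.9% of its windows with other genes, chiefly Dnajb6-ps, which stood at 0.66 ± 0.26 in the authors' deposited table. Dnajb1, the heat-inducible partner of Hspa1a, had -0.17 ± 0.11 in the authors' deposited table (adjusted p = 0.234), and passed on the negative side only after ribosomal centring, at -0.27 with an adjusted p-value of 0.0452. Dnajb4 missed the threshold at -0.56 ± 0.23 in the authors' deposited table (adjusted p = 0.0501), and passed on the negative side under both centrings, on all genes and on ribosomal protein genes. The other 7 DnajB members (Dnajb3, Dnajb5, Dnajb9, Dnajb11, Dnajb12, Dnajb13 and Dnajb14) ran from -0.51 to 0.44 without a call in the authors' deposited table.

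The DnajC family, whose members share little beyond the J domain, had 9 of 26 past the threshold by the authors' deposited table, 6 positive and 3 negative, and 13 on each side of 0. That is 34.6% of the family, near the 30.5% of all genes. Dnajc21, a ribosome biogenesis factor of the large subunit, had 0.58 ± 0.080 in the authors' deposited table (DESeq2 adjusted p = 1.03e-11). In the authors' deposited table Dnajc22 had 0.96 ± 0.28, from a mean count of 138.9 (adjusted p = 0.00267). Dnajc6 (auxilin, which with Hspa8 strips clathrin from vesicles) had 0.63 ± 0.23 in the authors' deposited table (adjusted p = 0.0219). Its call was lost after ribosomal centring, at 0.54 with an adjusted p-value of 0.0568. These 3 were the DnajC genes called up by the authors, and they work in different processes.

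In the authors' deposited table, smaller positive values that passed were 0.41 for Dnajc12, 0.38 for Dnajc7, a co-chaperone of both Hsp70 and Hsp90, and 0.21 for Dnajc13, an endosomal J protein. None of these 3 kept its call after ribosomal centring. On the negative side, Dnajc3 had -0.53 ± 0.10 in the authors' deposited table (DESeq2 adjusted p = 2.77e-06). Dnajc3 is the ER co-chaperone also known as p58IPK. Dnajc9, a histone chaperone, had -0.50 ± 0.13 and Dnajc5, the cysteine string protein of secretory vesicles, had -0.32 ± 0.12 in the authors' deposited table (adjusted p = 0.000439 and 0.0239). The 17 DnajC genes without a call ran from -0.37 for Dnajc28 to 0.21 for Dnajc16 in the authors' deposited table. With ribosomal centring the family counts became 2 positive and 6 negative, and its median went from 0.016 to -0.077.

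In the Bag family 2 of 6 passed, both negative, and 5 of 6 were negative as deposited. The called share, 33.3%, is near the 30.5% of all genes. Bag2, which binds Hsp70 and inhibits the ubiquitin ligase Stub1, had the most negative value of all members, -1.73 ± 0.17 in the authors' deposited table (DESeq2 adjusted p = 2.17e-22), a 3.31-fold difference at a mean count of 277.9. Only 0.852% of its windows occur in another gene. Bag3, the heat-inducible member that directs Hsp70 clients to autophagy, had -0.54 ± 0.18 in the authors' deposited table (adjusted p = 0.0108). Bag1, Bag4, Bag5 and Bag6 stood at -0.043, -0.17, -0.21 and 0.069 in the authors' deposited table without a call. Bag6, a chaperone of membrane protein precursors, had the highest mean count of the family and turned negative after ribosomal centring, which also gave Bag4 a call.

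**Figure D4:**
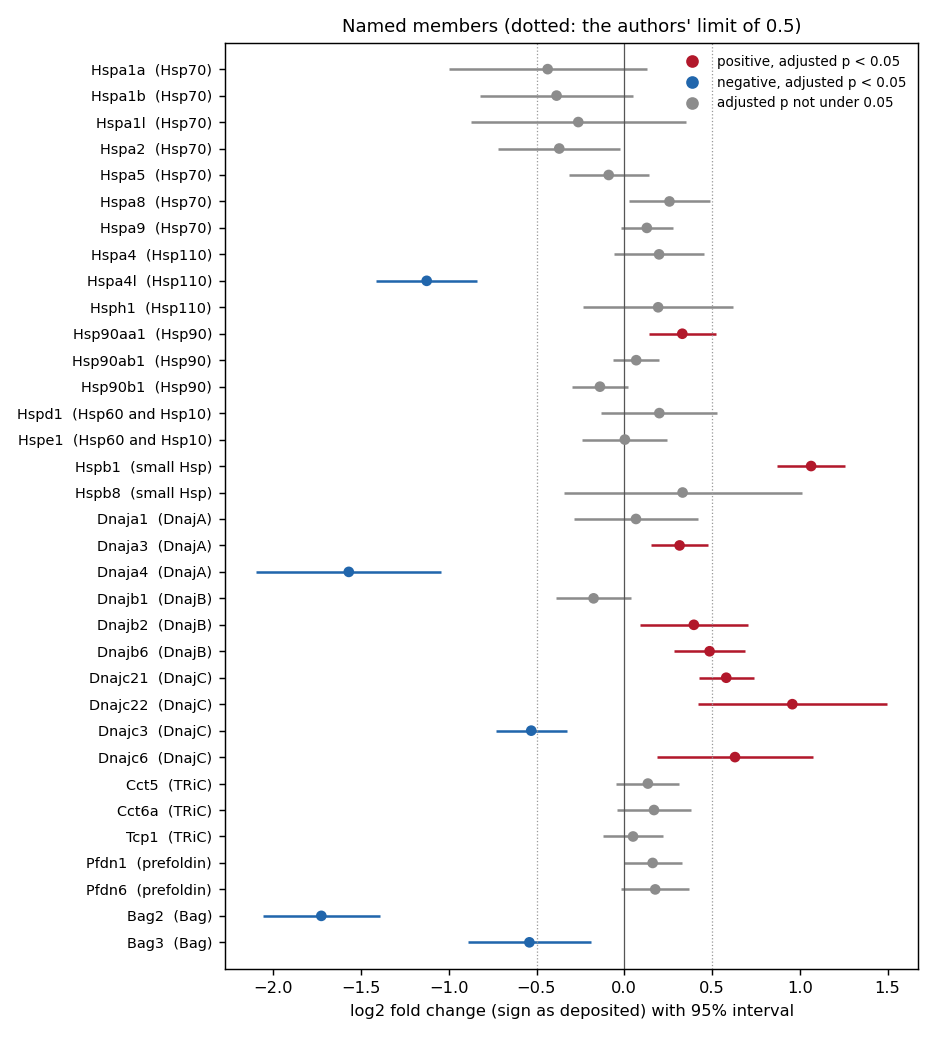
Log2 fold change (x axis, sign as deposited) with the 95% interval from the authors' standard error for members chosen by the naming rule (y axis, family in brackets); dotted lines mark 0.5 on either side. Hspb1 lies highest at 1.06 and Bag2 lowest at -1.73, and the intervals of the TRiC and prefoldin genes shown are short and include 0, whereas that of Hsp90aa1 lies above 0.

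Of 12 textbook targets of heat shock factor 1, 2 were positive (Hspb1 and Hsp90aa1), 1 was negative (Bag3) and 9 were without a call in the authors' deposited table. The 9 include Hspa8 and Hsp90ab1, named above as constitutive forms, so the 12 are not all heat-inducible members. The called share, 25.0%, is near the 30.5% of all genes, and the median of the 12 turned from 0.067 to -0.026 after ribosomal centring. Of the 68 members with a RefSeq promoter entry (250 bases before to 50 after the start), 14 (20.6%) held the 2-unit heat shock element, beside 9.04% of 27025 genes with an entry. Members all have a row in the authors' deposited table, and of the 11507 genes with both an entry and a row 6.98% held it. In the authors' deposited table, 2 of these 14 passed on the positive side (Hspb1 and Dnajb6), 2 on the negative side (Bag3 and Dnaja4), and 10 had no call, beside 14.6% and 15.9% of all genes on each side. The 3-unit element occurred in 4 members (5.88%), beside 0.662% of all genes with an entry and 0.547% of those that also had a row. The values of its carriers in the authors' deposited table were 0.0033 for Hspe1, 0.19 for Hsph1, 0.20 for Hspd1 and 0.49 for Dnajb6. The stretch of the Hspa1a promoter shown above is identical in Hspa1b. A match is a description of letters and not of binding. Among the members without an entry were Bag4, Cct4, Dnajc2, Dnajc5, Dnajc11, Dnajc12, Dnajc18, Dnajc22, Dnajc30, Hsp90aa1, Hsp90ab1, Hspa8, Hspa9, Hspa13, Hspb2 and Pfdn1.

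By compartment, the authors' deposited table had 11 of the 13 ER members negative, a median of -0.15 and 1 call (Dnajc3). After ribosomal centring 12 of 13 were negative and 7 passed, all on the negative side, so the number of ER calls rests on the scale. Of all 17110 genes, 8387 were negative as deposited, and 15.9% were past the threshold and negative. After ribosomal centring 10084 of all genes were negative, and 3508 passed on that side. The 8 mitochondrial members had a median of 0.13 with 6 positive and 1 call (Dnaja3) in the authors' deposited table, and a median of 0.037 with 5 positive after ribosomal centring. The called share as deposited was 7.69% of ER members and 12.5% of mitochondrial members, beside 30.5% of all genes. The ER stress response element occurred in 0.137% of 27025 genes with an entry and in 0.191% of the 11507 that also had a row. Of 68 members, 3 (4.41%) held it, namely Hspa5, Hsp90b1 and Dnajc3. Their values in the authors' deposited table were -0.089, -0.14 and -0.53, and only that of Dnajc3 passed. A CCAAT box alone was as frequent in members (41.2%) as in all genes with an entry (41.1%), and occurred in 43.3% of those that also had a row. Of 6 members known from testis, only Hspa4l passed in the authors' deposited table (16.7%, beside 30.5% of all genes). The other 5 had mean counts from 9.07 to 192.0.

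**Figure D5:**
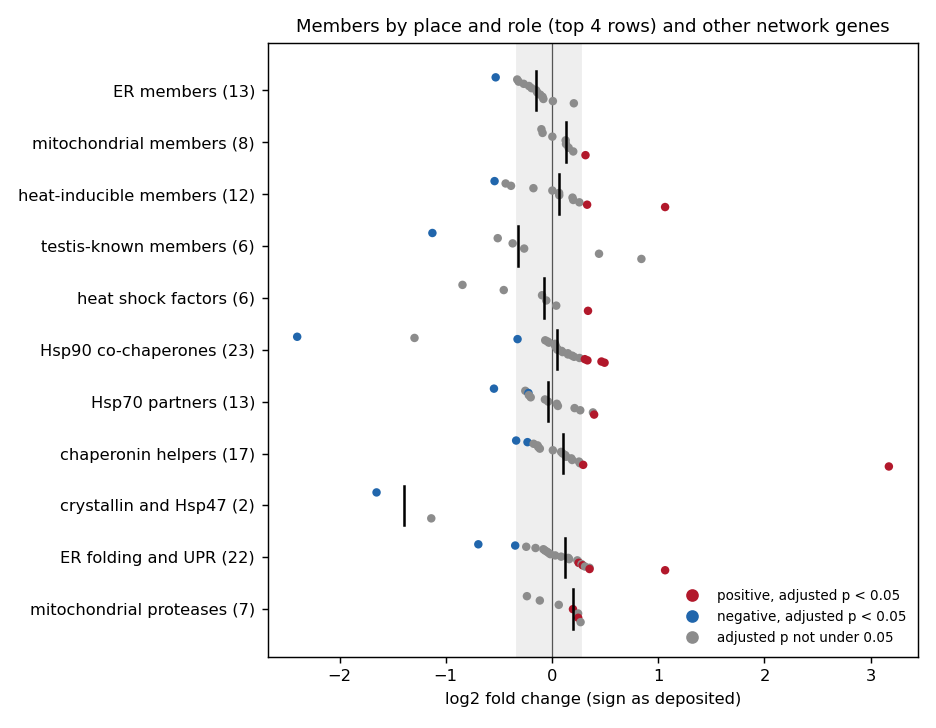
Log2 fold change (x axis, sign as deposited) of members grouped by place and role (top 4 rows) and of the other genes of the network by list (lower rows; number of genes in brackets); black lines are medians and the grey band is the interquartile range of all genes. The heat-inducible row also holds the constitutive Hspa8 and Hsp90ab1, and the row of Hsp70 partners also holds Trap1. ER members lie mostly left of 0, and Pdcl2 at 3.17 and Unc45b at -2.40 lie farthest out.

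Other genes of the network were taken from a list of 92, of which 90 had a row. The authors' deposited table had 14 positive and 9 negative calls, together 25.6% beside 30.5% of all genes. After ribosomal centring these counts were 8 and 13, and the 6 positive genes that lost their call were Sugt1, Clpb, Pdia4, Afg3l2, Uri1 and Atf4. Heat shock factors and their helpers had 1 call of 6, for Hikeshi, the nuclear import carrier of Hsp70, at 0.34 ± 0.081 in the authors' deposited table. Hsf1 itself stood at 0.040 ± 0.11 in the authors' deposited table (adjusted p = 0.834), and turned to -0.053 after ribosomal centring, without a call. Hsp90 co-chaperones had 4 positive and 2 negative calls of 23 in the authors' deposited table. The called shares were 26.1% for this list and 16.7% for heat shock factors and their helpers, beside 30.5% of all genes. Fkbp5, Cdc37l1, Fkbp4 and Sugt1 stood at 0.49, 0.47, 0.33 and 0.31, and Ahsa2 at -0.32 in the authors' deposited table. Unc45b, the myosin chaperone of muscle, was the lowest of the list at -2.40 ± 0.25 in the authors' deposited table (DESeq2 adjusted p = 8.65e-21).

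A list of Hsp70 partners without a J-family name, which also held Trap1, had 1 positive and 2 negative calls of 13 in the authors' deposited table. These were Trap1 at 0.40, Dnlz at -0.55 and Sec63 at -0.22. Trap1 is the mitochondrial Hsp90 that the name rule leaves out, so the positive call is not that of an Hsp70 partner. Of 17 chaperonin helpers in the authors' deposited table, Pdcl2, a phosducin-like protein known from germ cells, stood at 3.17 ± 0.41 (DESeq2 adjusted p = 4.41e-13), while Uri1, Pdcl3 and Pdrg1 passed at 0.29, -0.23 and -0.34. Of 22 genes of ER folding and the unfolded protein response, 4 were positive and 2 negative in the authors' deposited table. Xbp1, a transcription factor of that response, stood at 1.06 ± 0.14 in the authors' deposited table (adjusted p = 4.01e-13), in the opposite direction to Dnajc3. The others were Eif2ak3 at 0.35, Atf4 at 0.29, Pdia4 at 0.25, Edem1 at -0.35 and Ero1a at -0.69 in the authors' deposited table. Of 7 mitochondrial proteases and disaggregases, Clpb and Afg3l2 passed at 0.25 and 0.20 in the authors' deposited table. Called shares were 23.1% in the list of Hsp70 partners, 23.5% in chaperonin helpers, 27.3% in ER folding and 28.6% in these proteases. Each stands beside 30.5% of all genes.

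Some genes known from other cell types were past the threshold in the same comparison. Serpinh1, the collagen chaperone Hsp47, stood at -1.65 ± 0.25 in the authors' deposited table (DESeq2 adjusted p = 1.76e-09). Cryab, a small heat shock protein of muscle and lens, stood at -1.14 ± 0.50 and did not pass (DESeq2 adjusted p = 0.0684). Beside these stand the marker lists in the authors' deposited table: 7 of 9 trophectoderm markers with a row were past the threshold and negative (0 positive), as were 5 of 7 fibroblast markers (1 positive) and 1 of 4 primitive endoderm markers (0 positive). Over all genes, 15.9% were past the threshold and negative and 14.6% positive. The median of the trophectoderm list was -3.68 (Hand1, mean count 25.8) and that of the fibroblast list -1.95 (Acta2, mean count 55.9) in the authors' deposited table. Cdx2 was lowest at -5.82 and Tagln lowest at -5.96. Mean counts ran from 13.7 to 1903 in the trophectoderm list and from 10.1 to 25847 in the fibroblast list. In the primitive endoderm list they ran from 9.05 to 147.7. Of 11 embryonic stem cell markers with a row, the authors' deposited table had 7 positive and 0 negative calls, with mean counts of 2822 or more for each of them. Of 11 two-cell-like markers, 0 had a row used here, so the sorted state was not checked. The part of other cell types in the negative values of Serpinh1, Bag2, Bag3, Dnaja4 and Hspa4l was not tested.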

How the data were processed

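The study measured polyadenylated RNA by bulk sequencing (DNBSEQ, paired ends) in 6 samples. Per the submitters' processing notes, the tools were FastQC 0.12.1, Trimmomatic 0.39, STAR 2.7.11b, RSEM 1.3.3 and DESeq2 1.45.3 with GRCm39; their order, settings, model formula and annotation release are not given in the sources used here. All values come from the authors' deposited comparison. Per the file headers, its columns are a mean normalized count (the authors' signal, 1 per gene), a log2 fold change with a log2 standard error, a statistic (the score deposited by the authors, within 5.77e-07 of the fold change divided by its standard error) and the p-value and adjusted p-value as deposited. That the sorted groups are the ones compared is taken from the labels. A count table was not used: its 6 columns match no sample label, so depth and values per sample are not analysed here.

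The test is the authors' DESeq2 Wald test, two-sided, adjusted over all genes, with a threshold of 0.05; edgeR was not run. Computed here (Python 3.11.15, pandas 2.3.3, SciPy 1.17.1) were 95% intervals, medians, recentred Wald tests with Benjamini-Hochberg adjustment (checked on simulated data), promoter matches, and the share of 100-base windows of each principal transcript found in other GENCODE release 21 transcripts on either strand. Members and lists were chosen with earlier results of these data known. Named were members past 0.05 and 0.5, the 2 with the smallest p-value per family, 20 preset members, Hsf1 and the 3 top network genes; any other name was picked with its value in view. With sorted samples of one line, p-values measure only the spread between these samples. The values of 1 member are not reported here; it is counted in the totals.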

Additional observations from a re-analysis of the deposited data

How the results depend on the processing

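No paired analysis was possible because no column of counts carries a sample or replicate label and the authors' deposited table holds no value per sample. For the same reason edgeR, DESeq2 with other size factors, count filters and fits without a replicate were not run, so whether 1 library decides a value is not known. Removal of near-identical proteins was not run because no protein table was used. Values below are recomputed from the authors' deposited table.

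At an adjusted p-value of 0.01, 6 members stayed positive, and the calls became 1 in DnajB, 4 in DnajC and 1 in Bag, with 5 negative genes in the network. With an absolute log2 fold change over 0.5, 4 members were positive, Hsp90 and DnajB had 0 calls, DnajA 1 and DnajC 4, and the network had 2 positive and 4 negative. Over 1, members had 1 positive and 3 negative, Hsp90, DnajB and DnajC had 0, DnajA and Bag 1, and the network 2 of each direction; these limits themselves lower the counts. Centring on the ribosomal protein genes gave 6 positive and 18 negative members, 2 calls in Hsp70, 2 in Hsp90, 4 in DnajB and 1 in prefoldin, and 8 positive network genes. It turned the medians of all members and of Hsp60 with Hsp10 to -0.090, of Hsp90 to -0.025 and of DnajC to -0.077, and moved prefoldin to 0.058. Centring on all genes turned the medians of all members and of Hsp60 with Hsp10 to -0.0064. Restricted to members with a mean count of at least 1000, the medians were 0.021 for Hsp70, 0.067 for DnajA, 1.06 for small Hsp (Hspb1 alone) and -0.043 for Bag. Without the 23 members that share over 10% of their windows with other genes, an alternative chosen after seeing the data, 7 members were positive and 6 negative. Beyond the limits named, the causes were not tested.

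Among named genes, 246 recomputed values kept their direction and side of the threshold, 18 were weaker, 3 stronger and 6 reversed. Only the centrings could change a sign, and the stricter limits could only remove calls, so many of the 246 were fixed in advance. Centring on the ribosomal protein genes kept 29, with 5 reversed, 3 stronger and 2 weaker, and centring on all genes kept 38, with 1 reversed. The reversals, all without a call, were Hsp90ab1 at -0.025, Hspe1 at -0.090 and -0.0064, Dnaja1 at -0.026, Tcp1 at -0.043 and Hsf1 at -0.053. Low counts limit Cct6b, Dnajb3, Hspb2 and Hspa12b, with standard errors from 0.49 to 0.77.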
